A study of Mus musculus with 6 samples.

Results

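Galectins are a family of small sugar-binding proteins, and Lgals3bp is a secreted glycoprotein that binds several of them. These genes were described in mouse esophageal and stomach organoids, which are cultures of epithelial cells grown in a gel matrix. Members were all non-control array probes whose gene name was *Lgals1*, *Lgals2*, *Lgals3*, *Lgals4*, *Lgals7*, *Lgals8*, *Lgals9*, *Lgals12* or *Lgals3bp*. All 9 genes were found, of 34298 gene names on the array, under 12 probes of 55681. The 8 galectins were taken by their family name. *Lgals3bp* was chosen by its high stomach values on these same arrays, so its difference between the tissues is described without a test.

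The data were 6 single-color Agilent arrays, 3 of esophageal and 3 of stomach organoids at passage 0. The labels number the samples of each tissue Mu-1, Mu-2 and Mu-4, read here as mouse numbers and used below as replicate numbers. The methods do not state whether organoids of both tissues with the same number came from the same animal. The organoids were harvested on day 8, except for stomach replicate 4, which was harvested on day 7. The labels call the esophageal organoids squamous and the stomach organoids columnar and mark all 6 as controls. The methods name wild-type C57BL/6 female mice for the study in general, dissociated esophagus as the source of the esophageal organoids, and glands of the stomach corpus as that of the stomach organoids. Both media held EGF, noggin, FGF-10, nicotinamide and inhibitors of the TGF-β receptor and of ROCK. WNT3A, R-spondin1 and gastrin were in the stomach medium, and forskolin was in the esophagus medium. Tissue and medium therefore changed together and cannot be told apart. In such bulk RNA, fewer cells of a type and less RNA per cell cannot be told apart either.

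Galectins bind sugars that end in or contain galactose through a conserved carbohydrate recognition domain. They are made in the cytosol, leave the cell without a signal peptide, crosslink glycoproteins at the cell surface, and gather on endosomes and lysosomes whose membrane is broken. *Lgals1*, *Lgals2* and *Lgals7* encode proteins with a single domain, *Lgals4*, *Lgals8*, *Lgals9* and *Lgals12* encode proteins with a pair of domains on a linker, and *Lgals3* encodes a domain with a long flexible tail. In the gut tube, galectin-7 is known as a protein of stratified epithelia and galectin-2 and galectin-4 as proteins of glandular epithelia.

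Each member probe is a 60-base oligonucleotide in a single spot, and its sequence sets which transcript it reads. The *Lgals7* probe (chr7:29650625-29650684 in mm9, plus strand) is shown because it carries the sugar-binding site. Its capitals mark the codons for tryptophan, glycine, any residue and glutamate, a motif of the galectin sugar-binding domain, at bases 41 to 52.
Lgals7: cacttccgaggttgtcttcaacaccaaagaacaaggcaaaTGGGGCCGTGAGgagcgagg
A probe of *Lgals3bp* (chr11:118254332-118254391, minus strand) is shown because it reads another stretch of the transcript than the other probe of that gene, which starts 262 bases away. Capitals mark the stop codon, which ends a reading frame that is open over the rest of the probe.
Lgals3bp: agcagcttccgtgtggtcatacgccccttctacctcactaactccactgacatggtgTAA
The last pair is an *Lgals4* probe (chr7:29626555-29626614, plus strand) and the probe of *Lgals6*, a near copy of *Lgals4* that is known in some mouse strains. Capitals mark the 6 bases that differ where both probes cover the same 39 positions, bases 22 to 60 of the former and 1 to 39 of the latter.
Lgals4: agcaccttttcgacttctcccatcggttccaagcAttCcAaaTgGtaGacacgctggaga
Lgals6: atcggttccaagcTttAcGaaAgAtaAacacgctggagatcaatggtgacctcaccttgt
The other 33 bases match, in runs of at most 13. The other *Lgals4* probes overlap each other by 57 bases, and the array annotation lists both for *Lgals6* as well, so they may read transcripts of either gene. Apart from this overlapping pair, no member probe shared 20 bases in a row with any other probe on the array. The letters AATAAA, the usual signal for cleavage at the end of a transcript, were searched on the strand of the probe and found in 5 of the 12 member probes, of *Lgals1*, *Lgals2*, *Lgals3* and both overlapping probes of *Lgals4*, and in 10.1% of all probes.

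All values below are the authors' log2 intensities after background correction and quantile normalization. Differences are esophagus minus stomach on that scale, with the standard error (SE) of the limma fit. A probe was called when its p-value, adjusted by the Benjamini-Hochberg method over all 55681 probes, was under 0.05. Intensities of different probes do not share a scale, so levels are compared only between arrays of the same probe. A probe is well above background when the scanner software marks it so, and 45.5% to 51.1% of non-control spots were so marked per array. Where no array of a tissue was, the fold is a lower bound on the scale of the authors' values only. For this bound each array of the dimmer tissue was given the probe's own value or the lowest log2 value well above background on that array, whichever was higher. Where the probe's own values were the higher ones, as for *Lgals2* in the esophagus, the bound equals the plain fold. Other background settings can give a smaller fold than the bound. Precision is limited by the number of arrays, and an exact permutation test of 3 against 3 arrays cannot give a p below 0.1. Stomach replicate 4 stood apart from the other stomach arrays for several members, and values without it are given beside those results. The number of called probes over the whole array, 6770, was 7415 without it, 4091 without stomach replicate 1, 4152 without stomach replicate 2 and 5017 to 6380 without an esophagus array.

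Of the 10 galectin probes, 6 were called, against 12.2% of all probes. One direction held *Lgals7* alone, with 1 probe higher in the esophagus (5.94% of all probes). The other held 5 probes higher in the stomach (6.22% of all probes), 3 of *Lgals4* and 1 each of *Lgals2* and *Lgals9*. Over the 10 probes the median size of the difference was 6.49, against 0.22 over all probes, and the differences ran from -7.40 to 9.06. With the brightest probe of each gene, so that *Lgals4* counts once, the median size was 3.57 over the 8 galectins, against 0.24 over all genes. By the criteria in the study's methods, p under 0.05 and 1.5-fold, with no adjustment stated, 8 of 10 galectin probes passed (18.1% of all probes), the 6 and those of *Lgals3* and *Lgals12*. The 3 arrays of one tissue lay entirely above those of the other for the same 8, as for 28.6% of all probes with values on all arrays.

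**Figure D1:**
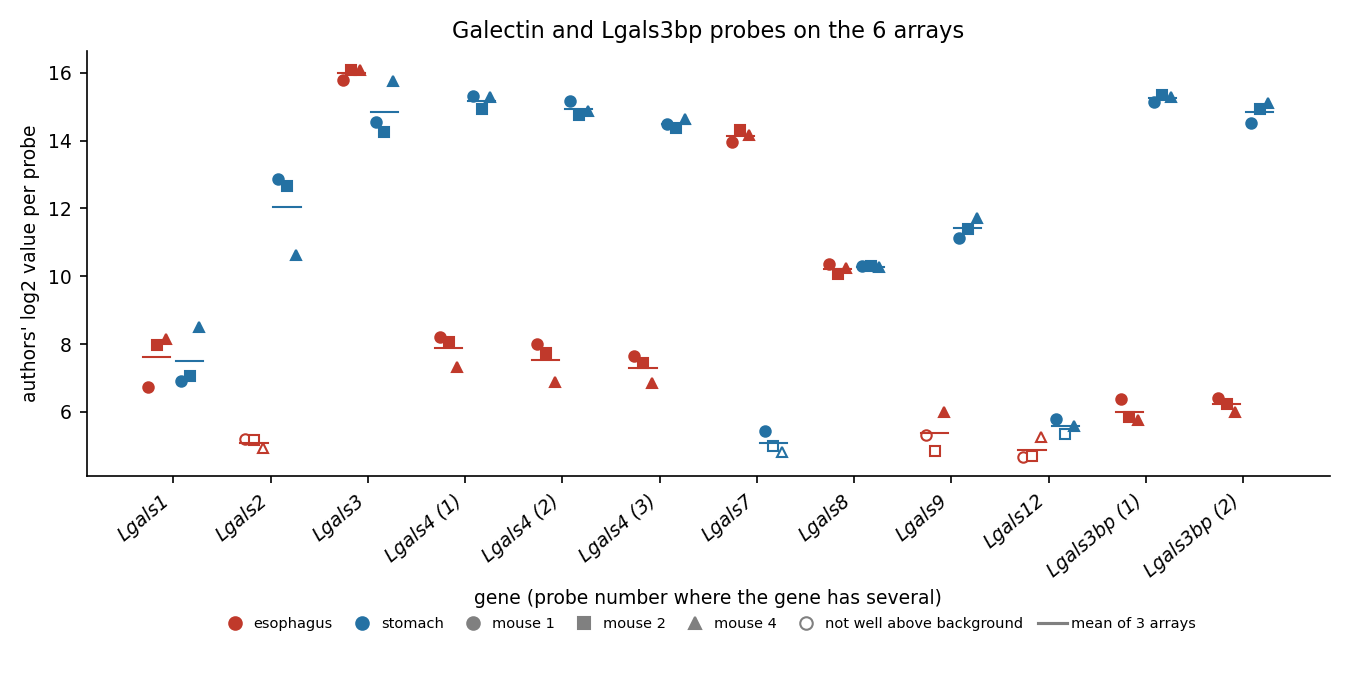
Authors' log2 value of each galectin and Lgals3bp probe on the 3 esophagus arrays (red) and 3 stomach arrays (blue), with mouse 1, 2 and 4 as circle, square and triangle, means of 3 arrays as lines, and open symbols where the probe was not well above background. *Lgals7* is near 14 in the esophagus and near 5 in the stomach, *Lgals2*, *Lgals4*, *Lgals9* and *Lgals3bp* lie the other way round, and *Lgals1* and *Lgals8* overlap.

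*Lgals7* encodes galectin-7, a single-domain galectin of stratified epithelia. Its probe read 13.95, 14.32 and 14.16 on esophagus replicates 1, 2 and 4 and 5.43, 4.99 and 4.83 on the stomach replicates. All esophagus arrays stood far above all stomach arrays, of which only replicate 1 was well above background. The difference was 9.06 (SE 0.20, 95% interval 8.60 to 9.52, limma adjusted p = 1.6e-07), a 535-fold difference of the normalized values. By replicate number it was 8.53, 9.33 and 9.33. The stomach values sit near background, and alternative settings gave 7.93 (background offset of 50) to 11.34 (75th percentile scaling). The latter changes the background correction and the normalization together. The former, here and below, also used mean instead of median spot intensities and left control spots out of the normalization. The raw spot intensities were 16600, 21600 and 22200 in the esophagus and 44.3, 29.4 and 31.3 in the stomach.

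*Lgals2* encodes galectin-2, a single-domain galectin of the digestive tract. Its probe (chr15:78681315-78681374, minus strand) read 12.88, 12.66 and 10.63 on stomach replicates 1, 2 and 4. On the esophagus arrays it read 5.19, 5.17 and 4.93, and none of these was well above background. The groups did not overlap, and stomach replicate 4 was well below the others of its tissue. The stomach level was higher by at least 125-fold on the authors' values (difference -6.96, SE 0.54, limma adjusted p = 0.000107). All esophagus values are at background, and the difference was -5.90 with a background offset of 50 and -9.67 with 75th percentile scaling. The cause of these moves was not tested. Without stomach replicate 4 the difference was -7.67 (SE 0.17, limma adjusted p = 1.73e-06).

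*Lgals4* encodes galectin-4, a galectin with a pair of domains found in glandular gut epithelium. The probe whose sequence is shown read 14.50, 14.36 and 14.63 in the stomach and 7.65, 7.43 and 6.84 in the esophagus. The brightest of the overlapping probes (chr7:29626661-29626720, plus strand) read 15.31, 14.94 and 15.28 against 8.22, 8.06 and 7.34. The remaining one, which starts 3 bases before it, read 15.18, 14.77 and 14.88 against 8.01, 7.73 and 6.88. On each probe the stomach arrays lay close together and esophagus replicate 4 was the lowest of all. All 3 probes were well above background on all 6 arrays, those of the esophagus included. The differences were -7.19 (SE 0.23, limma adjusted p = 7.9e-07), -7.30 (SE 0.25, limma adjusted p = 1.24e-06) and -7.40 (SE 0.29, limma adjusted p = 2.52e-06), which are 146-fold, 158-fold and 169-fold. Their 95% intervals overlapped, at -7.71 to -6.67, -7.89 to -6.72 and -8.08 to -6.72. Over the alternative settings no *Lgals4* probe left the range -7.64 to -6.91.

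The *Lgals6* probe read 11.74, 11.25 and 11.43 in the stomach and 5.85, 5.21 and 4.83 in the esophagus, where replicate 1 alone was well above background. Within each tissue its arrays stood in the same order as on the overlapping *Lgals4* probes. On the *Lgals4* probe whose sequence is shown, the order in the stomach differed, with replicate 4 highest instead of replicate 1. The difference was -6.18 (SE 0.27, limma adjusted p = 4.74e-06), and the alternative settings gave -7.92 to -5.22. The array annotation gives this probe no position in mm9, and the RefSeq gene table of GRCm38.p6, which holds all 9 members, was searched for *Lgals6* without a match. How much of its signal came from *Lgals4* transcript was not tested.

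**Figure D2:**
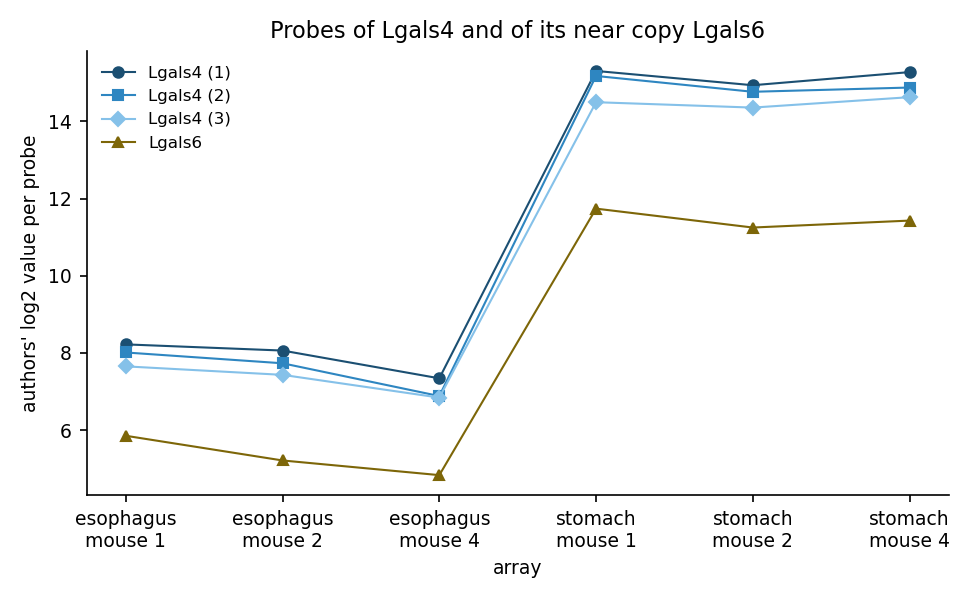
Authors' log2 value of the 3 *Lgals4* probes (blue) and the *Lgals6* probe (ochre) on the 6 arrays, with lines that only join the points of a probe. All 4 probes are higher on each stomach array than on each esophagus array, by -7.40 to -6.18 on average as esophagus minus stomach.

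*Lgals4* and *Lgals7*, which differ in opposite directions, are neighbours. The *Lgals4* probe whose sequence is shown and the *Lgals7* probe start 24.1 kb apart on chromosome 7 of mm9, on the same strand, and the RefSeq table lists 0 genes between them. *Lgals2* and *Lgals1* are near each other as well, with probes 79.3 kb apart on chromosome 15 and 5 listed genes between them, and of this pair *Lgals2* was called and *Lgals1* was not.

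*Lgals9* encodes galectin-9, a galectin with a pair of domains that is known as an eosinophil attractant and a ligand of TIM-3. Its probe (chr11:78776922-78776981, minus strand) read 11.13, 11.39 and 11.71 in the stomach and 5.33, 4.85 and 5.99 in the esophagus. Esophagus replicate 4 alone of its tissue was well above background, and the groups did not overlap. The difference was -6.02 (SE 0.30, limma adjusted p = 8.87e-06), a 64.8-fold difference of the normalized values. Alternative settings gave -7.57, under 75th percentile scaling of background-subtracted intensities, to -4.90, with a background offset of 50.

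*Lgals3* encodes galectin-3, the member with a flexible tail, which is found in most epithelia. Its probe (chr14:48005414-48005473, plus strand) read 15.80, 16.08 and 16.08 in the esophagus and 14.55, 14.25 and 15.77 in the stomach. The groups did not overlap, but stomach replicate 4 came close to esophagus replicate 1. The difference of 1.13 (SE 0.36, 95% interval 0.28 to 1.98) did not pass (limma adjusted p = 0.0964, unadjusted p = 0.0154). By replicate number it was 1.25, 1.82 and 0.32. Without stomach replicate 4 it was 1.59 (SE 0.18, limma adjusted p = 0.002), and with 75th percentile scaling it was 1.41 (SE 0.39, limma adjusted p = 0.0478). Over all settings it ran from 0.83 to 1.59, with adjusted p from 0.002 to 0.29.

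*Lgals1* encodes galectin-1, a single-domain galectin that is abundant in mesenchyme. Its probe (chr15:78760566-78760625, plus strand) read 6.75, 7.98 and 8.15 in the esophagus and 6.92, 7.05 and 8.50 in the stomach. The groups overlapped, and the highest value of all was that of stomach replicate 4. The difference was 0.13 (SE 0.50, 95% interval -1.03 to 1.30, limma adjusted p = 0.917), and differences of either direction lie in the interval. Without stomach replicate 4 it was 0.64 (SE 0.41, limma adjusted p = 0.427). Of 8 fibroblast markers, *Vim*, *Pdgfra*, *Lum* and *Postn* were well above background on no array. *Col3a1* was so on 1 esophagus and 2 stomach arrays, and *Col1a1*, *Col1a2* and *Dcn* on 1 array each, and 0 of the 8 were called, against 16.2% of all genes in either direction. Without esophagus replicate 2, or with 75th percentile scaling, 1 was called higher in the stomach. Their part in the *Lgals1* values was not tested.

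*Lgals8* encodes galectin-8, a galectin with a pair of domains that recognizes damaged endosomes and recruits the autophagy machinery. Its probe (chr13:12531700-12531759, minus strand) read 10.35, 10.06 and 10.25 in the esophagus and 10.31, 10.29 and 10.26 in the stomach. The groups overlapped. The difference was -0.07 (SE 0.14, limma adjusted p = 0.843), and its 95% interval of -0.40 to 0.27 was the narrowest of the galectins that were not called.

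*Lgals12* encodes galectin-12, known from the lipid droplets of fat cells. Its probe (chr19:7672371-7672430, minus strand) read 4.67, 4.71 and 5.25 in the esophagus and 5.78, 5.36 and 5.58 in the stomach. None of the esophagus arrays and only stomach replicates 1 and 4 were well above background, so the fold bound, at least 1.36-fold higher in the stomach, is given over all 3 stomach arrays with 2 of them measured. The groups did not overlap, and the difference of -0.70 (SE 0.21) did not pass (limma adjusted p = 0.0742). It passed without esophagus replicate 4, at -0.89 (SE 0.18, limma adjusted p = 0.0234). The difference was -2.65 with 75th percentile scaling (limma adjusted p = 0.00053) and -0.36 with a background offset of 50 (limma adjusted p = 0.102). Of 5 adipocyte markers, *Adipoq*, *Plin1* and *Lep* were well above background on no array. *Fabp4*, a fatty acid carrier, was so on all 6 and read 7.24 to 11.79 in the esophagus and 6.49 to 10.03 in the stomach (limma adjusted p = 0.574). *Cidec*, a lipid droplet protein, was higher in the stomach by at least 13.3-fold (limma adjusted p = 5.36e-05), called on the brightest of its 2 probes only.

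*Lgals3bp* encodes the galectin-3-binding protein, a heavily glycosylated secreted protein of the scavenger receptor family that interferons are known to induce. Its brightest probe (chr11:118254070-118254129, minus strand) read 15.14, 15.35 and 15.30 in the stomach and 6.39, 5.86 and 5.75 in the esophagus. The probe whose sequence is shown read 14.52, 14.93 and 15.11 against 6.42, 6.24 and 6.01. On both probes esophagus replicate 1 was the highest and replicate 4 the lowest of its tissue, and all 6 arrays were well above background. The differences of -9.26 (SE 0.20) and -8.63 (SE 0.20) are the values the gene was selected on, and correspond to 615-fold and 396-fold. By replicate number they were -8.75, -9.49 and -9.55 for the former and -8.10, -8.69 and -9.10 for the latter.

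**Figure D3:**
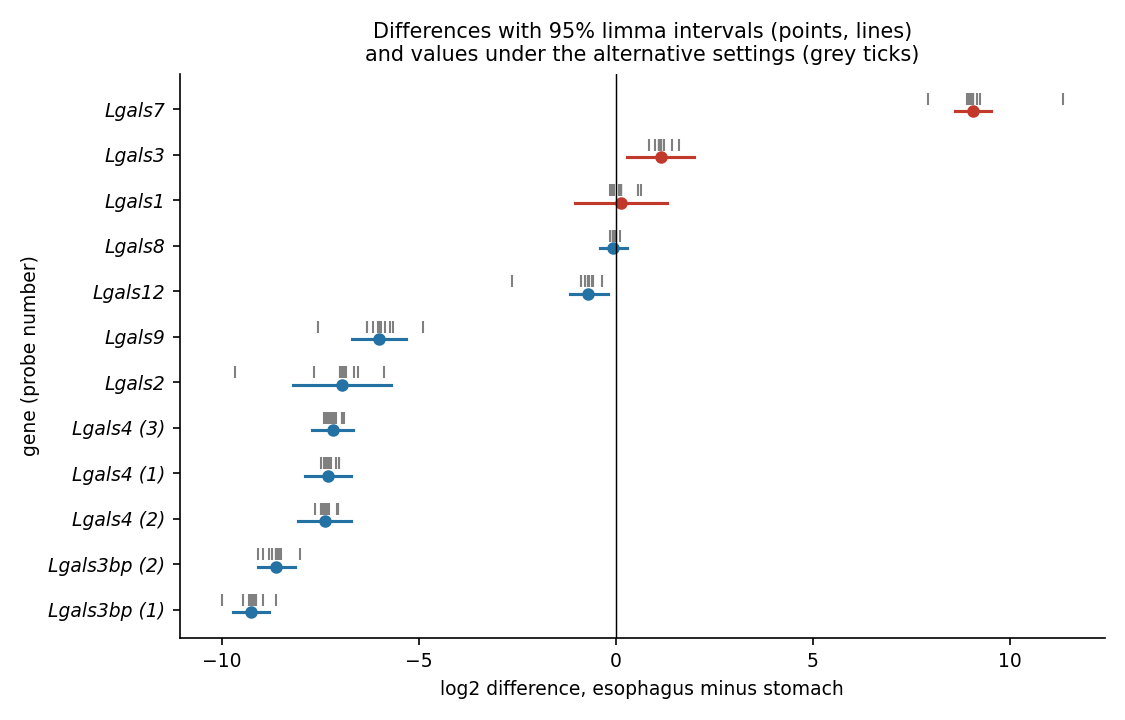
Log2 difference (esophagus minus stomach) of each probe as a point with its 95% limma interval as a line, and the same difference under each alternative setting as grey ticks. The 5 stomach-high galectin probes lie at -4.90 or below under each setting tried, *Lgals7* at 7.93 or above, and the ticks of *Lgals1* and *Lgals8* fall on both sides of 0. *Lgals3bp* was chosen by these values, so its points, intervals and ticks are description only and no test.

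Among genes outside the family, those with the most similar profile were found by the root mean square difference over the 6 arrays after each profile was centred on its mean, over 15767 named genes that passed the background mark throughout 1 tissue or both. Nearest to *Lgals7* were *BC100530* (0.337), *Hoxc4* (0.344), *Col17a1* (0.359), a collagen of hemidesmosomes, *Tgfbi* (0.386) and *Gm5476* (0.457). *Lgals4* lay nearest to *Gjb1* (0.136), a gap junction connexin, *Foxa2* (0.241), an endoderm transcription factor, *Aspa* (0.259), *Atp1b1* (0.298) and *Clu* (0.323). *Lgals3bp* lay nearest to *Adh1* (0.21), an alcohol dehydrogenase, *Eps8l3* (0.295), *Tspan8* (0.298), *Cybrd1* (0.333) and *Slc39a4* (0.344). For *Lgals3* the smallest values were those of *Yrdc* (0.0768), *Nab1* (0.1), *Gbe1* (0.133) and *Tex30* (0.151). The dim side of such profiles can be background, as for *Lgals7* on 2 of 3 stomach arrays and *Col17a1* on all 3, and since the 6 arrays fall into 2 tissues, likeness here is largely likeness in the size of the tissue difference.

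Other galectin-related genes were few on the array. *Lgalsl*, which encodes a galectin-like protein without the usual sugar binding, read 12.37, 11.35 and 9.34 in the esophagus and 10.97, 10.52 and 11.13 in the stomach. Its esophagus arrays spread more widely than the arrays of either tissue on any member probe, and the difference was 0.14 (SE 0.67, limma adjusted p = 0.934). *Grifin*, a lens galectin, differed by 0.03 (SE 0.24, limma adjusted p = 0.96) and was well above background on 2 of 3 arrays of each tissue. *Lgals5* and *1110067D22Rik* were not found under these names.

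What galectins bind depends on enzymes that branch, extend and cap galactose-bearing sugar chains. Of 30 such genes, 7 had a probe higher in the esophagus and 12 one higher in the stomach, against 7.88% and 8.33% of all genes in these directions and 16.2% in either. The median difference of their brightest probes was -0.32, against 0.03 over all genes. Of those higher in the stomach, *Gcnt3*, which branches mucin-type chains, differed most (difference -7.99, SE 0.28, limma adjusted p = 1.45e-06), followed by *B4galt6* (-5.68, SE 0.29), which adds galactose to glycolipids, *St3gal6* (-4.90, SE 0.49), which caps galactose with sialic acid, and *B4galt5* (-4.72, SE 0.33), a relative of *B4galt6* with the same role. *B4galt5* was called on the brightest of its 2 probes only. In the esophagus, *St3gal2*, another sialyltransferase, was higher by 4.76 (SE 0.19, limma adjusted p = 2.79e-06). *B3gnt8*, which extends branched chains, was at least 5.11-fold higher there, and *B4galt4* was higher by 2.43 (SE 0.38).

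*Mgat5*, whose branches are the best known ligands of galectin-3, was higher in the stomach by at least 1.75-fold (limma adjusted p = 0.00683), where it read 5.96, 5.96 and 5.94, close to background. *B4galt1*, which adds galactose to protein-linked chains, was higher in the stomach as well (-1.87, SE 0.22, limma adjusted p = 0.00101), and *B3gnt2*, which extends them, was higher in the esophagus (1.59, SE 0.30, limma adjusted p = 0.0124). *St6gal1*, whose sialic acid blocks galectin-1, differed by -0.10 (SE 0.25, limma adjusted p = 0.875). Leaving out 1 array at a time gave 4 to 6 of these genes higher in the esophagus, with 4 without stomach replicate 1, and 11 to 14 higher in the stomach.

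Of 20 glycoproteins known to be bound by galectins, 19 were on the array, and 6 had a probe higher in the esophagus and 6 one higher in the stomach, against 7.88% and 8.33% of all genes. Their median difference was 0.34. *Muc1*, a membrane mucin bound by galectin-3, was higher in the stomach by at least 141-fold (limma adjusted p = 1.99e-06). *Bsg*, a chaperone of lactate transporters, differed by -2.61 (SE 0.17, limma adjusted p = 3.65e-05). *Alcam*, an adhesion molecule, differed by -2.10 (SE 0.19, limma adjusted p = 0.000227). In the esophagus, *Dpp4*, a surface peptidase, was higher by 1.58 (SE 0.29, limma adjusted p = 0.0106), *Itga5* by 1.23 (SE 0.20) and *Itgb4*, an integrin of hemidesmosomes, by 1.19 (SE 0.16). The lysosome protein *Lamp1* differed by 0.06 (SE 0.14, limma adjusted p = 0.874). *Cd44*, *Itga6* and *Tfrc* were called on a dimmer probe only, and for *Itga6* that probe (-1.57, SE 0.20) and the brightest one (0.57, SE 0.22) differed in sign. Without stomach replicate 1, and likewise without stomach replicate 2, 3 genes were higher in the esophagus, and without stomach replicate 4 there were 9.

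Of 18 genes of the response to damaged endosomes and lysosomes, 1 had a probe higher in the esophagus and 2 one higher in the stomach, with a median of 0.10. These counts are near the 7.88% and 8.33% of all genes called in these directions and are no result about the list. *Tecpr1*, an autophagosome tether, differed by -2.62 (SE 0.27, limma adjusted p = 0.000515) and *Optn*, an autophagy receptor, by -1.56 (SE 0.36, limma adjusted p = 0.0279). *Tfe3*, a transcription factor of lysosomal genes, was called on its dimmer probe only (1.1, SE 0.26, limma adjusted p = 0.0298). The count of 1 in the esophagus fell to 0 without esophagus replicate 2 or 4 or stomach replicate 1 or 2, and became 2 without stomach replicate 4. Without stomach replicate 1 or 2, 1 gene was higher in the stomach.

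Of 30 interferon-stimulated genes, the class to which *Lgals3bp* is often assigned, 1 was called higher in the esophagus and 8 were called higher in the stomach, against 7.88% and 8.33% of all genes, and the median was -0.59. *Oas1a* read 12, 12.22 and 10.18 in the stomach against 6.14, 7.20 and 7.73 in the esophagus (difference -4.45, SE 0.59, limma adjusted p = 0.00208). *Oasl2*, of the same family of RNA sensors, read 11.54, 11.97 and 9.09 against 6.24, 6.18 and 8.12 (difference -4.02, SE 0.80, limma adjusted p = 0.0154), and *Bst2*, which tethers virus particles, differed by -2.17 (SE 0.29, limma adjusted p = 0.00214). *Gbp2*, a guanylate-binding protein, was higher in the esophagus by 0.94 (SE 0.18, limma adjusted p = 0.0112). *Isg15*, which encodes a ubiquitin-like protein, read 9.25, 9.53 and 7.78 in the stomach and 9.89, 9.07 and 9.65 in the esophagus (limma adjusted p = 0.431). The count of 8 became 13 without stomach replicate 4, 4 without esophagus replicate 2, 5 without esophagus replicate 4, and 3 without stomach replicate 1 or without stomach replicate 2. The count of 1 became 0 without stomach replicate 2 and 2 without esophagus replicate 1. Whether *Lgals3bp* moves with these genes was not tested.

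**Figure D4:**
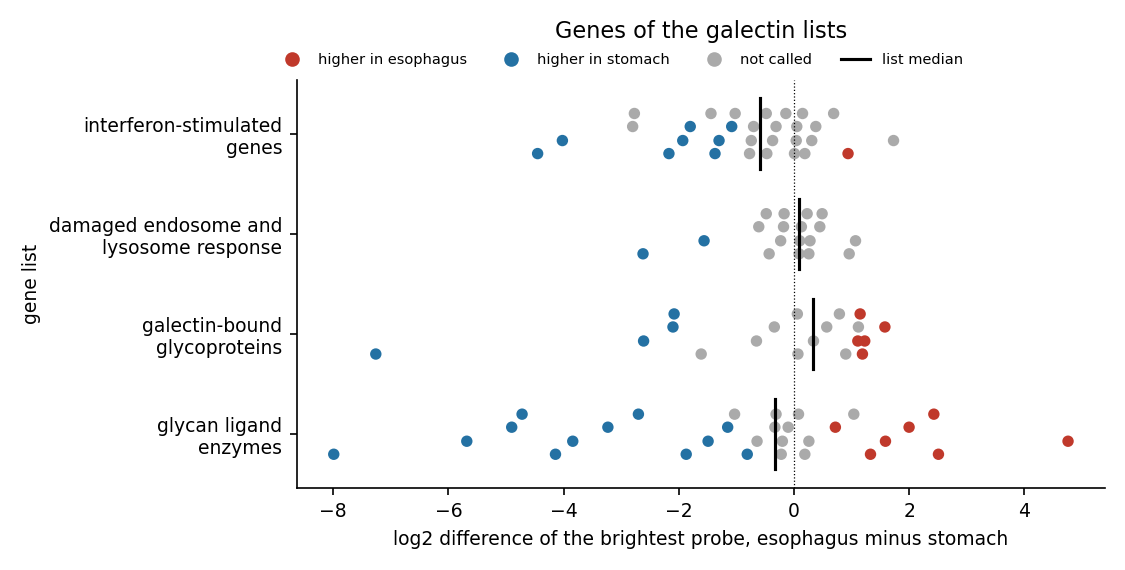
Log2 difference (esophagus minus stomach) of the brightest probe of each gene in 4 lists, colored by the limma call of that probe, with the list median as a black line. Called genes lie on both sides of 0 in 3 of the lists, and the medians are -0.59, 0.10, 0.34 and -0.32 from top to bottom.

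Cell type markers were read beside these values. All 9 squamous markers had a probe higher in the esophagus, although the brightest *Trp63* probe differed by -1.22, and 12 of 13 columnar gastric markers were higher in the stomach, against 7.88% and 8.33% of all genes in these directions. The summed linear level of the squamous list was 477000 to 576000 in the esophagus and 1930 to 3500 in the stomach, where it was 265 to 411 without *Trp63*, and that of the columnar list was 4850 to 10700 and 1000000 to 1120000. Of the squamous list, *Trp63* alone was well above background on all 3 stomach arrays. Fibroblast markers summed to 224 to 256 and 270 to 276. With 0 of 8 well above background on all 3 arrays of either tissue, these sums are close to background and are no measure of a tissue difference. Of 8 immune markers, *Ptprc*, *Adgre1* and *Lyz2* were well above background on no array, *Cd79a* was so on 4 arrays, and *Itgam*, *Cd68*, *Csf1r* and *Cd3e* on all 6. *Itgam* was the one called, higher in the stomach, on the brightest of its 3 probes only. *Cd68* averaged 13.17 (esophagus) and 11.54 (stomach). Without stomach replicate 4 there were 2 immune markers higher in the stomach, and without esophagus replicate 4 or with the slide as a block 1 was higher in the esophagus. Of 5 smooth muscle markers and 5 endothelial markers 0 were called, and 1 smooth muscle marker was called higher in the esophagus without esophagus replicate 4 or with the slide as a block. Over all genes 16.2% were called in either direction, so that such low counts in short lists are no result about these cells. *Tagln* (means 9.69 and 9.61), *Kdr* (8.89 and 8.64) and *Pecam1* were well above background on all 6 arrays, *Acta2*, *Cnn1* and *Tek* on 1 array each, and *Myh11*, *Des*, *Cdh5* and *Emcn* on none. The part of such cells in the galectin values was not tested. Stomach replicate 4, which stood apart for *Lgals1*, *Lgals2* and *Lgals3*, read 13.26 for the pit cell mucin *Muc5ac* against 15.65 and 15.03, and 9.79 for the gland mucin *Muc6* against 7.39 and 8.33. The other columnar markers did not move in a single direction. Of the markers the paper groups with *Muc6*, *Pgc* read 14.66 against 13.15 and 13.94, but *Gkn3* read 16.16 against 17.16 and 17.07. The pit cell marker *Tff1* read 17.88 on each stomach array. The part of its cell makeup or of its earlier harvest in the galectin values was not tested.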

How the data were processed

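Total RNA of 6 organoid samples was hybridized to single-color Agilent arrays. Per the labels, the authors read the spots with Agilent Feature Extraction, and the deposited scanner files hold each spot's raw intensity and markings. The deposited table of log2 values was, according to the methods, background corrected and quantile normalized by the authors. Normexp on median intensities with an offset of 15 and quantile normalization gave these values to within 0.0726 (median deviation 0.00527), so the scale is log2 without centring, and the offset is not given in the sources used here. The column medians were 5.33, and 5.34 for stomach replicate 4. All 2029 cells without a value belonged to spots marked as outliers. Each column correlated best with its own array (Spearman 0.991 to 0.995 across spots, against at most 0.929).

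In R 4.3.3, limma 3.58.1 (lmFit, eBayes, two-sided, no block, checked on simulated data) compared the tissues over all 6 arrays. Arrays of both tissues share mouse numbers, and deviations of the 2 arrays of a number correlated with r = 0.025, 0.0119 and -0.00787. Between different numbers r ran from -0.0726 to 0.0405, so these values show no pairing. Members and lists were chosen with earlier results of these data known. Named were every member probe, *Lgals6*, up to 3 genes per list and direction with the largest difference further genes counted in a list, markers, and the 5 nearest profiles, of which 1 has no gene symbol. A gene was counted in a list when at least 1 probe was called, and values are those of its brightest probe. Coordinates are those of the array annotation (mm9). Whether they are exonic was not looked up. Alternatives were scaling and the background offset, the latter changed together with the spot statistic and the use of control spots. Others were outlier-marked spots, a filter on dim probes, averaged probes, variance options, mouse or slide as a block and each array left out. List counts under these were added after seeing the data.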

Additional observations from a re-analysis of the deposited data

How the results depend on the processing

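Over 15 alternative settings, the probes of *Lgals2*, *Lgals4*, *Lgals7* and *Lgals9* kept their direction and their call. The count of 6 called galectin probes was 6 with mouse as replicate block in a paired fit, with 1 in the direction of the esophagus and 5 in that of the stomach, and 6 to 7 when 1 array was left out. It was 8 with 75th percentile scaling, 7 with a variance trend and robust variances or with the slide as a block, and 4, counted as genes, with the probes of a gene averaged. The count higher in the esophagus was 2 with 75th percentile scaling, and 1 to 2 when 1 array was left out, with 2 without stomach replicate 4 (*Lgals3*). With 75th percentile scaling the median of all probes shifted to 0.19. The count higher in the stomach ran from 5 to 6 with 1 array left out, *Lgals12* being added without esophagus replicate 4. With the slide as a block *Lgals12* gave the same values as without esophagus replicate 4 (-0.89), so this is no further setting in which it passed. It also passed with a variance trend and robust variances (-0.70, limma adjusted p = 0.0461) and with 75th percentile scaling (-2.65). In 10 of 14 settings *Lgals12* was not called, with limma adjusted p up to 0.249, and it had no value with dim probes filtered. *Lgals1*, never called, turned to -0.13 with the slide as a block and ran from -0.15 to 0.64 with 1 array left out. *Lgals8*, never called, turned to 0.09 with 75th percentile scaling and ran from -0.14 to 0.01 with 1 array left out. The cause was not tested. *Lgals3bp* ran from -10.01 to -8.62 and from -9.10 to -8.03 on its probes. Slide 2 held esophagus replicate 4 only, so values within slide 1 are those without that array. Signal over background limits *Lgals12* in both tissues and the dim side of *Lgals2*, *Lgals7* and *Lgals9*.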
